A study of Mus musculus with 6 samples.

Results

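Clustered protocadherins were examined in RNA of the mouse prefrontal cortex (PFC). They were taken by name, as every gene row called Pcdha, Pcdhb, Pcdhga, Pcdhgb or Pcdhgc with a number, or Pcdhac1 or Pcdhac2. This gave 57 of 54429 gene rows, with 13 in the Pcdha cluster, 22 in the Pcdhb cluster and 22 in the Pcdhg cluster. The study sequenced 6 libraries from mice aged 6 months, in 3 groups of 2. WT mice (C57BL/6 x C3H) were given vehicle, a saline solution with a little DMSO. P301S Tau mice (PS19), which carry a transgene for mutant human tau under the promoter of the prion gene Prnp, were given the same vehicle or UNC0642. UNC0642 blocks the histone methyltransferases EHMT1 and EHMT2, which write H3K9me2, a mark of silent chromatin. It was given intraperitoneally, with 3 daily doses of 1 mg/kg. The 6 libraries are bulk tissue from mice that the study calls biological duplicates. In bulk tissue fewer cells of a type and less RNA per cell cannot be told apart.

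Clustered protocadherins are adhesion proteins of the neuronal surface. Each neuron uses its own small set of isoforms, chosen from alternative promoters by CTCF, cohesin and DNA methylation, and matching sets on facing membranes let a neuron recognise its own branches. Each isoform has its own large variable exon. In the alpha and gamma clusters this exon is spliced to constant exons that all isoforms of the cluster share, while each beta gene stands alone. The C-type isoforms (Pcdhac1, Pcdhac2, Pcdhgc3, Pcdhgc4 and Pcdhgc5) are not chosen in this way and are made more broadly, with Pcdhac2 known for serotonergic axon tiling and Pcdhgc4 for neuronal survival.

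Counts per library summed to between 17005664 and 28972176. The labels were checked against single genes. Prnp was at 1652 CPM (read counts scaled to the size of the library) in the library labelled WT replicate 1 and at 873 CPM in WT replicate 2, against 1470 to 1694 CPM in the P301S Tau libraries. The library labelled WT replicate 1 thus had a Prnp level in the range of the transgenic libraries, and results against WT are given with and without it. Xist, a gene of female cells, had 4104 to 8107 counts in WT replicate 2 and both untreated Tau libraries. It had at most 5 counts in the other libraries, so that UNC0642 treatment of Tau mice coincides with sex. Without the library labelled WT replicate 1, UNC0642-treated Tau against WT also coincides with sex. Neuronal markers summed to between 8309 and 9262 CPM. Markers of striatum, a neighbouring tissue, summed to 253 CPM in Tau replicate 2 and to between 97.7 and 122.5 CPM elsewhere, and markers of oligodendrocytes to 5517 CPM there and to between 1458 and 2956 CPM elsewhere. Tau replicate 2 therefore stood apart, and calls lost without it are named. In Tau against WT all 8 striatal markers and 3 of 8 oligodendrocyte markers were called higher, while 3.72% of all genes were. After UNC0642 7 and 2 were called lower, while 3.95% of all genes were. Oligodendrocyte markers summed to 2956 CPM in the library labelled WT replicate 1 and to 1458 CPM in WT replicate 2. Leaving out the former thus widens their gap between WT and Tau. The part of striatal and oligodendrocyte markers in the results below was not tested.

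The 3 clusters lie one after the other on the plus strand of chromosome 18 in the GRCm38 build. The Pcdha cluster runs from 36930184 to 37187661, the Pcdhb cluster from 37264938 to 37524479 and the Pcdhg cluster from 37661793 to 37841873. In the GENCODE M21 annotation 2860 bases of exon belong to all 13 Pcdha members, and 2116 bases belong to all 22 Pcdhg members. A read in such a constant exon cannot be given to a single gene. The median member had 53.6% of its exon covered by another gene in the Pcdha cluster (48.6% to 93.0%), 45.3% in the Pcdhg cluster (31.5% to 100%), and none in the Pcdhb cluster, where 19 of 22 members had no shared base.

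**Figure D1:**
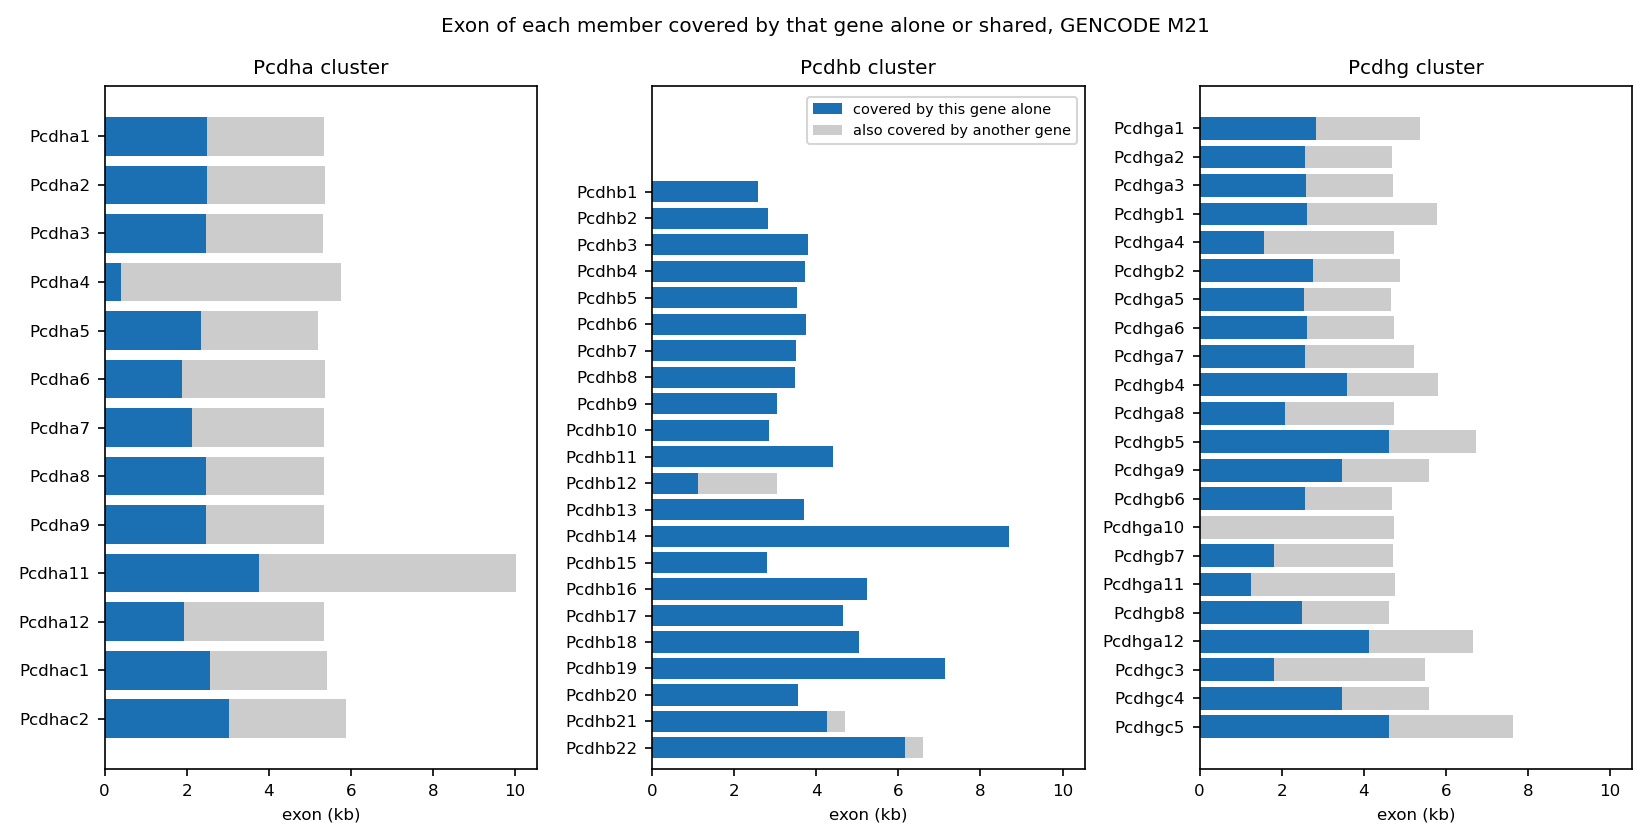
Exon of each of the 57 members in kilobases (horizontal bars), in the order of the genes along the chromosome. Blue is covered by that gene alone and grey is also covered by another gene on either strand. Pcdha and Pcdhg members each carry a grey part, nearly all Pcdhb members carry none, and Pcdhga10 has no blue part.

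The counts behaved as if reads in shared exon had been dropped without regard to strand. Of 1160 genes with no exonic base of their own on either strand, 1146 had 0 counts in all 6 libraries. Of the 151 of these that were free of other genes on their own strand over at least 500 bases, 147 were at 0. Among 38300 genes with at least 500 bases of their own, 26.6% were at 0. Counts of Pcdha and Pcdhg members were therefore read as counts of the exon that each does not share. Reads in the constant exons are missing from all of these genes in every group. The unshared exon need not be the variable exon alone, with 4606 bases in Pcdhgc5 against a median of 2587 in the Pcdhg cluster. Levels are given per kilobase (kb) of the exon that a gene does not share.

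Some members lost more than the constant exons. Pcdhga10 had 0 counts in every library, and all 2613 bases of its variable exon are overlapped by Gm26672 on the other strand, so its level is not known from these counts. Pcdha4 kept 404 bases and had 9 and 8 counts in the WT libraries, 14 and 0 counts in those of untreated Tau mice, and 0 and 2 counts after UNC0642. Pcdhb1 kept its whole exon of 2588 bases and still had only 2 to 6 counts per library, around the 3 counts that a count of 0 allows. These 3 members were too low to be tested, and the other 54 were tested, 12 of Pcdha and 21 each of Pcdhb and Pcdhg. The row called Pcdha11 may also hold the reads of Pcdha10, because the annotation gives that name to 2 loci. Reads can also be lost or misplaced between close copies. Of all stretches of 50 bases in the unshared exon, 25.5% in Pcdha7 and 24.6% in Pcdha6 also occur in another gene. The share was at most 9.5% in any Pcdhb member and 0% in each of the 5 C-type members.

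The highest levels per kb were those of 2 C-type members, Pcdhgc5 and Pcdhac2, the last genes of their clusters. Pcdhgc5 was at 87.7 and 91.5 CPM in WT, 103.8 and 84.8 CPM in Tau, and 88.0 and 83.1 CPM in UNC0642-treated Tau mice. Pcdhac2 was at 51.2 and 57.4 CPM, 57.8 and 52.7 CPM, and 52.2 and 51.3 CPM in the same groups. The 3 groups overlapped for Pcdhgc5, and for Pcdhac2 both treated libraries lay just below both untreated Tau libraries and overlapped with WT. Per kb of unshared exon the mean over the 6 libraries was 19.5 CPM for Pcdhgc5 (18.0 to 22.5) and 17.8 CPM for Pcdhac2 (16.9 to 19.1). The median over 20265 tested genes was 3.21 CPM per kb, and 86.6% of these genes were below Pcdhgc5 and 85.1% below Pcdhac2. In every library these 2 genes together gave between 22.6% and 26.001% of all counts of the 57 members.

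The other C-type members were lower. Pcdhgc3 was at 6.34 CPM per kb (5.91 to 6.88), Pcdhgc4 at 3.76 (3.03 to 4.31) and Pcdhac1 at 2.62 (1.81 to 2.98). Pcdhgc3 was close to the highest members chosen by single neurons, Pcdhga11 at 5.98 CPM per kb, Pcdhb9 at 5.95 and Pcdhga6 at 5.93, and their ranges over libraries overlapped. The order depends on the length used. Divided by all exonic bases, Pcdhgc5 and Pcdhac2 stayed the highest, but Pcdhgc3 went from rank 3 to rank 19 and Pcdhga11 from rank 4 to rank 28.

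Among the remaining members the levels spread widely. Medians per subfamily were 1.94 CPM per kb in alpha, 2.13 in beta, 3.54 in gamma-A and 2.22 in gamma-B, against 6.34 in the C-type. Divided by all exonic bases they were 0.773, 2.11, 1.74, 1.01 and 2.33 in the same order, with beta above gamma-A and just below the C-type. In alpha the levels ran from 0.399 CPM per kb for Pcdha1 to 4.12 for Pcdha12, with Pcdha9 at 3.16. In beta they ran from 0.0640 for Pcdhb1 to 5.95 for Pcdhb9. Pcdhb17, Pcdhb16 and Pcdhb19, the beta genes with the most counts, were at 5.28, 3.70 and 3.46 CPM per kb. Genes near the start of the Pcdhb cluster had lower levels than genes near its end (Spearman's rho 0.67 between level per kb and order over 22 genes of the same libraries, as a description), and none of the first 8 genes was above the 2.34 CPM per kb of Pcdhb7.

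**Figure D2:**
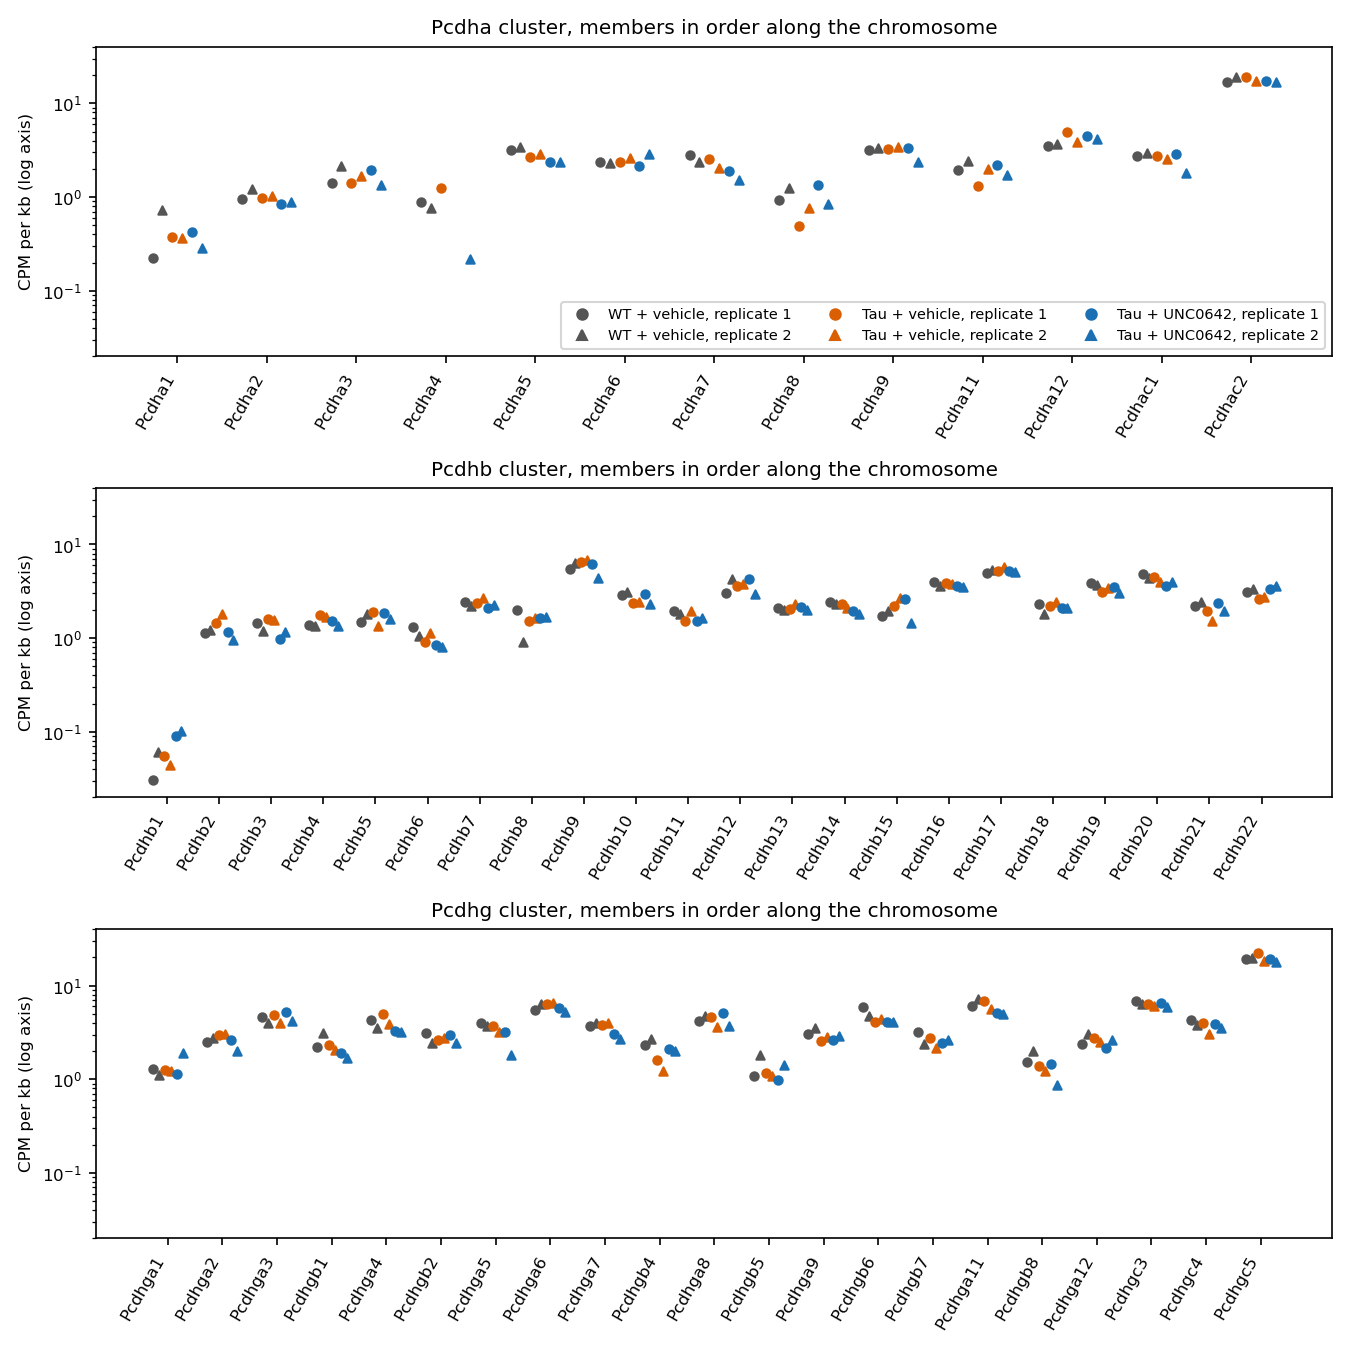
CPM per kb of unshared exon (log axis) of 56 members in the 6 libraries, in the order of the genes along each cluster, with colours for groups and symbols for replicates. Values of 0 in Pcdha4 are not drawn. Pcdhac2 and Pcdhgc5, at the right ends of their clusters, sit between 16.9 and 22.5 CPM per kb, above every other member, and Pcdhb1 is the lowest with a mean of 0.0640.

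The median difference between the replicates of a group was 0.145 on the log2 scale for the 5 C-type members and 0.208 for the other 49, against 0.230 in 9240 other genes with CPM in the range of those 49 members, a range that Pcdhgc5 and Pcdhac2 exceed. Among the C-type members the widest gaps were 0.62 for Pcdhac1 between the UNC0642 replicates and 0.40 for Pcdhgc4 between the Tau replicates. The widest gaps of all members were within WT. Pcdha1 had 14 counts in the library labelled WT replicate 1 and 46 in WT replicate 2, and Pcdhb8 had 175 and 81. These 2 genes were picked after their values were seen, and the side of any WT comparison they fall on depends on which WT library is used.

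Summed over its members, each cluster was at a similar level in the 3 groups. All 57 members together were at 623 ± 13.1 CPM in WT, 606 ± 21.3 CPM in Tau and 569 ± 33.2 CPM in UNC0642-treated Tau mice (SD, n = 2 each). The Pcdha cluster was at 114 ± 9.40, 110.4 ± 2.90 and 105 ± 7.64 CPM (SD, n = 2 each). Pcdhb was at 237 ± 3.31, 234 ± 5.49 and 221 ± 13.4 CPM, and Pcdhg at 272 ± 6.98, 262 ± 23.9 and 244 ± 12.2 CPM (SD, n = 2 each). The order from WT over Tau to UNC0642-treated mice was the same in all 3 clusters. WT and Tau overlapped in each of them, and UNC0642-treated mice lay below both WT libraries in Pcdhb and Pcdhg. UNC0642 replicate 2 was the lowest library in each cluster. The shares of the clusters moved little, with Pcdha at 17.5% to 19.1%, Pcdhb at 37.0% to 40.2% and Pcdhg at 41.4% to 44.9% of all member counts.

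Among the subfamilies, gamma-B stood out as a description. Its 7 genes summed to 52.4 and 54.4 CPM in WT, to 43.5 and 40.8 CPM in Tau, and to 44.2 and 42.4 CPM in UNC0642-treated Tau mice. Both WT libraries were above all 4 P301S Tau libraries, and the treated and untreated Tau libraries overlapped. Against WT the log2 ratio of the sums was -0.34 for Tau and -0.30 for UNC0642-treated Tau, which became -0.37 and -0.33 when the library labelled WT replicate 1 was left out. The 5 C-type members summed to 177 ± 5.63, 180 ± 20.1 and 167 ± 7.67 CPM (SD, n = 2 each), and the 12 gamma-A genes to 102.7 ± 4.68, 102.0 ± 5.82 and 90.6 ± 5.89 CPM (SD, n = 2 each), with both UNC0642 libraries below the other 4 in gamma-A. Gamma-B was singled out after its values were seen. Endothelial markers were also higher in both WT libraries, at 209.5 and 201.3 CPM, than in the P301S Tau libraries. They were at 145.2 and 152.6 CPM in Tau and at 145.6 and 193.2 CPM in UNC0642-treated Tau mice. UNC0642 replicate 2 was thus nearer to WT in these markers than the other P301S Tau libraries, but was at 42.4 CPM in gamma-B. Of the 8 endothelial markers, none of them at 0, 5 were called lower in Tau mice and 4 in UNC0642-treated Tau mice against WT. Over all genes 6.1% and 5.69% were called lower in these comparisons. WT replicate 2 taken alone, at 201.3 CPM, was still above all 4 P301S Tau libraries. The part of endothelial markers in the gamma-B level was not tested.

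**Figure D3:**
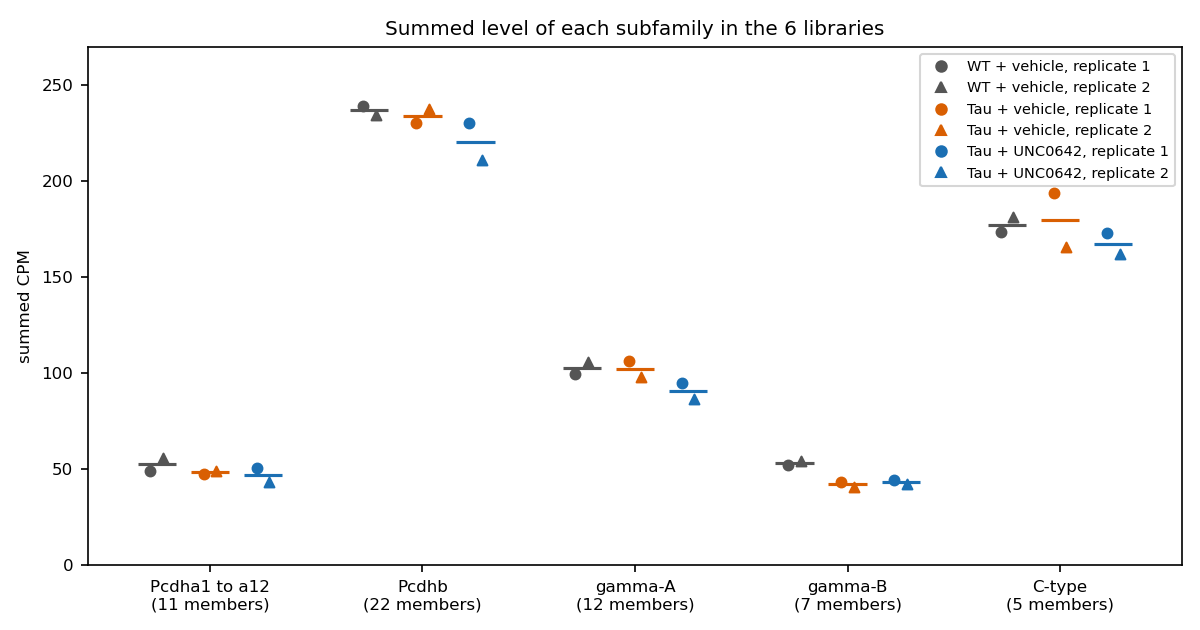
Summed CPM of each subfamily (vertical axis from 0) in the 6 libraries, with short bars for group means. Gamma-B is at 52.4 and 54.4 CPM in WT and between 40.8 and 44.2 CPM in the 4 P301S Tau libraries. In the other subfamilies WT and untreated Tau overlap, in alpha only just, with WT replicate 1 at 49.16 CPM and Tau replicate 2 at 49.18 CPM.

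Each member was compared between groups with edgeR's quasi-likelihood test across 20409 genes. Following the study's threshold, a gene is called where its fold change reaches 1.2 in either direction with a p-value below 0.05 before adjustment, and p-values were adjusted over all genes by the Benjamini-Hochberg method. The 3 comparisons share libraries, so their results are not independent of each other.

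The first comparison asks how P301S Tau mice differ from WT mice. Of 54 members tested, 0 were called higher and 2 lower, Pcdhgb4 and Pcdhb22, while over all genes 3.72% were called higher and 6.1% lower. The 2 of 54 members were thus no larger a share than among all genes. None had an adjusted p-value under 0.05, which 0.157% of all genes had, and the smallest was 0.213. An unadjusted p-value under 0.05 was reached by the same 2 members, and DESeq2's Wald test called 1. Above 0 were 23 members and below 0 were 31, with a median log2 fold change of -0.08, and over all genes the median was -0.00011. Medians were -0.14 in Pcdha, 0.015 in Pcdhb and -0.10 in Pcdhg. Without the library labelled WT replicate 1, 55 members were tested, with 1 called higher and 4 lower, while 4.38% and 4.64% of all genes were called in that fit. The gene called higher there was Pcdhb8.

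Pcdhgb4, a gamma-B isoform, was at 8.24 and 9.57 CPM in WT, at 5.83 and 4.41 CPM in Tau, and at 7.58 and 7.23 CPM in UNC0642-treated Tau mice. Both Tau libraries were below the other 4, and the treated libraries lay between Tau and WT. Its log2 fold change in Tau against WT was -0.79 (standard error 0.20, adjusted p = 0.213). It was called in all 15 other fits, with values from -1.01 to -0.61. It was -0.89 without the library labelled WT replicate 1 and -0.61 without Tau replicate 2. The adjusted p ran from 0.0203 to 0.451 over these fits and was under 0.05 in 1 of them, the fit with no filter on low counts. In the fit with no filter 656 of 34535 genes had an adjusted p under 0.05, against 32 of 20409 in the reported fit. Of the stretches of 50 bases in the unshared exon of Pcdhgb4, 7.4% also occur in another gene, mostly Pcdhgb5. Pcdhgb5 was at 4.97 and 8.44 CPM in WT and 5.43 and 4.98 CPM in Tau.

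All 7 gamma-B genes were below 0 in Tau against WT, with a median of -0.34 and values from -0.79 to -0.05, and over all genes 10211 of 20409 were below 0. Pcdhgb4 was the only gamma-B gene called. Pcdhgb6 was at 15.1 and 12.3 CPM in WT and 10.4 and 11.3 CPM in Tau, with a log2 fold change of -0.34 (standard error 0.15, adjusted p = 0.403) that lay just outside the call. Of the 11 gamma-A genes tested, 6 were above 0 and 5 below.

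Pcdhb22, the last gene of the beta cluster, was at 19.3 and 20.9 CPM in WT, 16.3 and 17.1 CPM in Tau and 20.8 and 22.01 CPM in UNC0642-treated Tau mice. The 2 Tau libraries were the lowest. Its log2 fold change in Tau against WT was -0.27 (standard error 0.12, adjusted p = 0.392), and it was called in 6 of 15 other fits. Leaving out any single library but the one labelled WT replicate 1 ended the call, with values of -0.21 without WT replicate 2, -0.23 without Tau replicate 1, -0.30 without Tau replicate 2, and -0.27 without either UNC0642 library.

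With all 6 libraries the C-type members were not called in any comparison. In Tau against WT their log2 fold changes were 0.08 for Pcdhgc5 (standard error 0.10), 0.03 for Pcdhac2 (standard error 0.10), -0.10 for Pcdhgc3 (standard error 0.14), -0.19 for Pcdhgc4 (standard error 0.16) and -0.11 for Pcdhac1 (standard error 0.23). In UNC0642-treated against untreated Tau mice they ran from -0.18 for Pcdhac1 to 0.05 for Pcdhgc4, and in UNC0642-treated Tau against WT from -0.30 for Pcdhac1 to -0.07 for Pcdhgc5. Leaving out 1 library brought 4 calls, all lower. Without Tau replicate 1, Pcdhgc4 was called in Tau against WT at -0.42, and without Tau replicate 2, Pcdhgc5 was called after UNC0642 at -0.28. Without UNC0642 replicate 1, Pcdhac1 was called after UNC0642 at -0.55 and against WT at -0.66. The sign of small values was not fixed, with Pcdhac2 in Tau against WT at -0.06 without the library labelled WT replicate 1.

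The second comparison asks what UNC0642 changed in P301S Tau mice. Of 54 members, 3 were called higher and 3 lower, while 3.73% and 3.95% of all genes were. None had an adjusted p-value under 0.05, as 0.0196% of all genes had, and the smallest was 0.441. An unadjusted p-value under 0.05 was reached by the same 6 members, and DESeq2's Wald test called 2 higher and 0 lower. Above 0 were 18 members and below 0 were 36, with a median of -0.10 against -0.0023 over all genes. Medians were -0.09 in Pcdha, -0.13 in Pcdhb and -0.04 in Pcdhg. Both treated libraries had the male pattern of Xist and both untreated ones the female pattern. With a term for Xist in the fit, 1 member was called higher and 2 lower, while 825 and 817 of all 20409 genes were. Xist differed within WT only, so this term rests on the 2 WT libraries. It cannot tell treatment from sex. The count also rested on single libraries, with 8 called lower without UNC0642 replicate 1 and 1 without UNC0642 replicate 2, and 1 called higher without either of them or without Tau replicate 1.

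The members called higher were Pcdhb22, Pcdhgb4 and Pcdha8. Pcdhb22 had a log2 fold change of 0.36 (standard error 0.12, adjusted p = 0.441), and it was called in 13 of 15 other fits, with values from 0.32 to 0.47. It lost the call without Tau replicate 1 (0.32) and without UNC0642 replicate 2 (0.32). Both treated libraries were above both untreated ones and overlapped with WT. Pcdhgb4 had a log2 fold change of 0.52 (standard error 0.20, adjusted p = 0.510) and lost the call without Tau replicate 2 (0.34), without UNC0642 replicate 1 (0.49), without UNC0642 replicate 2 (0.55) and with the Xist term (0.73). Both genes had been called lower in Tau against WT, and because the untreated Tau libraries enter both comparisons the opposite signs are not independent.

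Pcdha8, an alpha isoform of low level, was at 2.29 and 3.09 CPM in WT, 1.22 and 1.89 CPM in Tau, and 3.37 and 2.12 CPM in UNC0642-treated Tau mice. The Tau libraries were again the lowest, with 34 and 33 counts. Its log2 fold change after UNC0642 was 0.83 (standard error 0.37, adjusted p = 0.563), and it was called in 7 of 15 other fits. The call was lost without WT replicate 2, without Tau replicate 1 (0.53), without UNC0642 replicate 1 (0.47) and with the Xist term (1.27). In Tau against WT it was at -0.82 (standard error 0.37, adjusted p = 0.404), just outside the call. Of the stretches of 50 bases in its unshared exon, 18.8% also occur in another gene, mostly Pcdha7.

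The members called lower after UNC0642 were Pcdhga7, Pcdhb3 and Pcdhb2. Pcdhga7, a gamma-A isoform, was at 9.46 and 10.3 CPM in WT, 9.80 and 10.2 CPM in Tau and 7.76 and 6.88 CPM in UNC0642-treated Tau mice. Both treated libraries were below the other 4, and WT and Tau overlapped. Pcdhga7 had a log2 fold change of -0.46 after UNC0642 (standard error 0.16, adjusted p = 0.477), and -0.43 in UNC0642-treated Tau against WT (standard error 0.16, adjusted p = 0.321). After UNC0642 it lost the call without Tau replicate 2 (-0.43), without UNC0642 replicate 2 (-0.37) and with the Xist term (-0.34).

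Pcdhb2 and Pcdhb3 are neighbours near the start of the beta cluster. Pcdhb2 was at 3.23 and 3.48 CPM in WT, 4.04 and 5.15 CPM in Tau and 3.26 and 2.69 CPM in UNC0642-treated Tau mice. Pcdhb3 was at 5.56 and 4.49 CPM in WT, 6.01 and 5.95 CPM in Tau and 3.73 and 4.37 CPM in UNC0642-treated Tau mice. In both genes the Tau libraries were the highest. Pcdhb2 had a log2 fold change of -0.63 after UNC0642 (standard error 0.26, adjusted p = 0.537), which was -0.45 and no longer called without Tau replicate 2 and -0.49 and no longer called without UNC0642 replicate 2. With the Xist term it was -0.52 and not called. Pcdhb3 had -0.56 (standard error 0.22, adjusted p = 0.514) and lost the call without Tau replicate 1, without Tau replicate 2 (-0.57) and without UNC0642 replicate 1. Pcdhb4, the next gene, was at 5.12 and 4.999 CPM, 6.65 and 6.24 CPM, and 5.62 and 5.03 CPM in the same groups and was not called, with -0.28 (standard error 0.20).

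**Figure D4:**
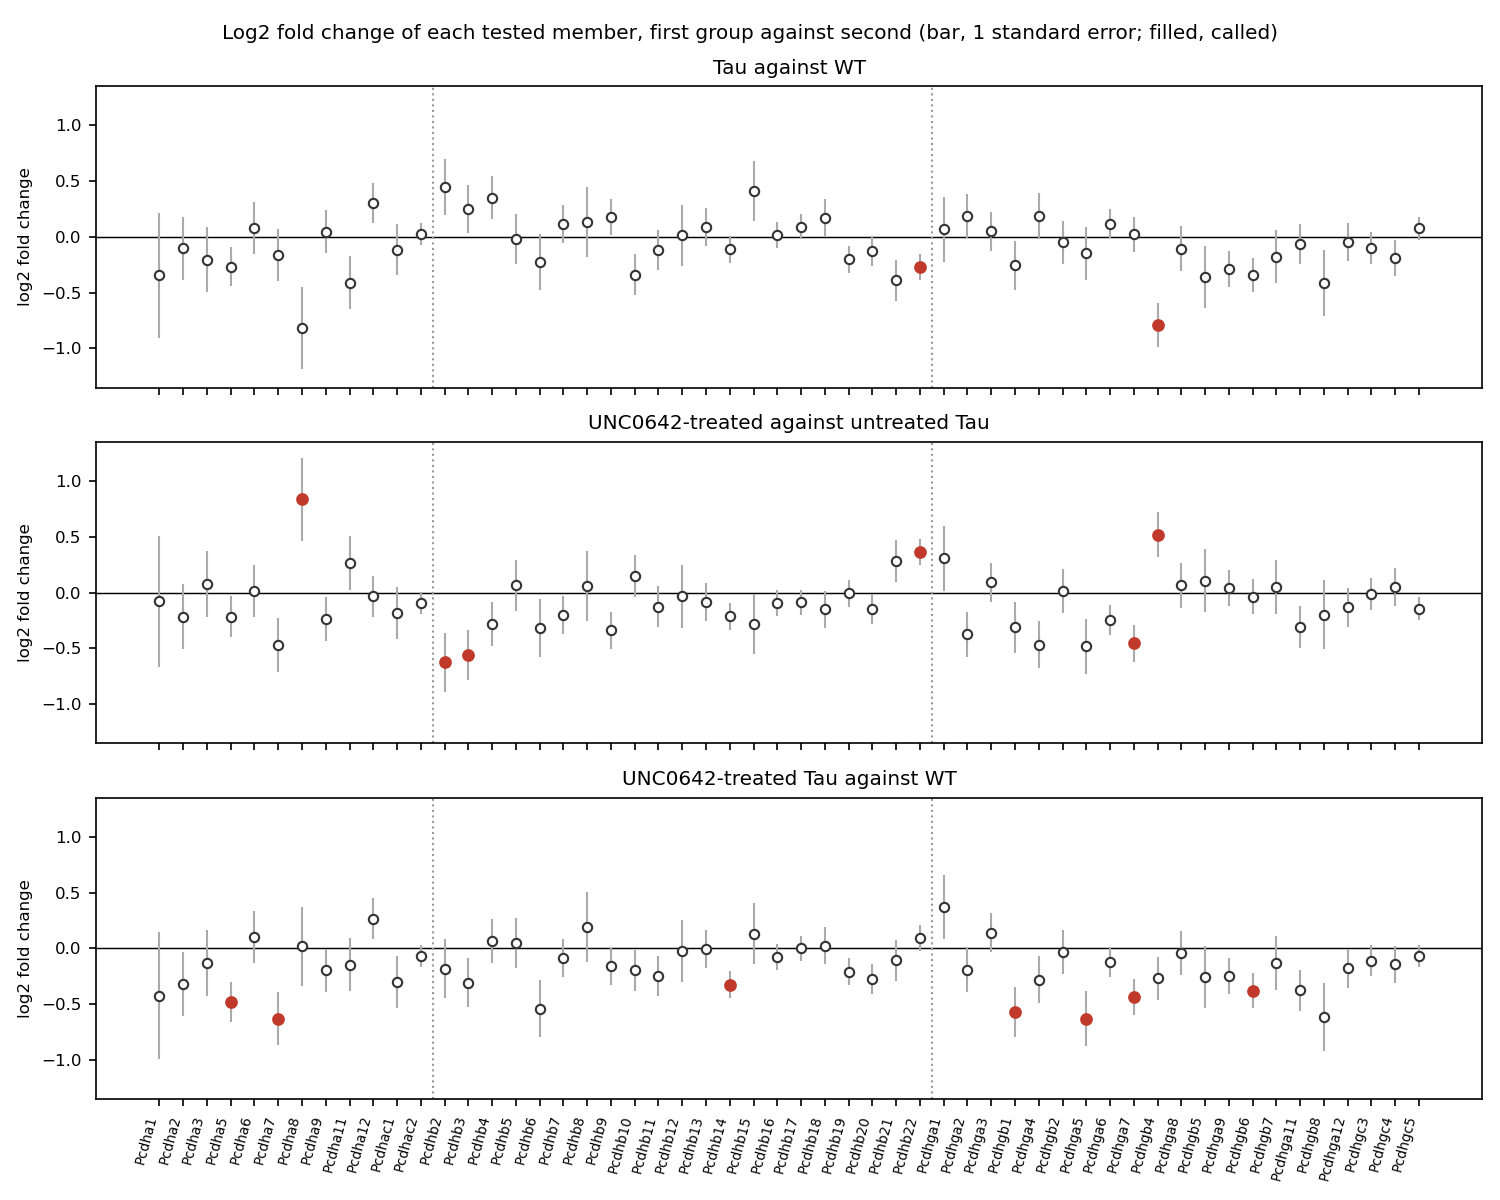
Log2 fold change of the 54 tested members in the 3 comparisons (vertical axis), in the order of the genes, with vertical bars of 1 standard error and dotted lines between clusters. Red points are called. In Tau against WT 2 members are called, both lower, after UNC0642 3 are called higher and 3 lower, and in UNC0642-treated Tau against WT 7 are called, all lower.

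The last comparison asks how far UNC0642-treated Tau mice were from WT mice. Of 54 members, 0 were called higher and 7 lower, while 3.77% and 5.69% of all genes were. None had an adjusted p-value under 0.05, which 0.216% of all genes had, and the smallest was 0.321. An unadjusted p-value under 0.05 was reached by the same 7 members, and DESeq2's Wald test called 1. Above 0 were 12 members and below 0 were 42, with a median of -0.15 against -0.012 over all genes, and 10612 of all 20409 genes were below 0. Medians were -0.17 in Pcdha, -0.08 in Pcdhb and -0.19 in Pcdhg, where 19 of 21 members were below 0. The 7 of 54 members were a larger share than among all genes, and the count rested on single libraries. Without UNC0642 replicate 2, 0 members were called lower. Without the library labelled WT replicate 1, 4 of 55 were called lower and 1 higher, while 4.76% and 4.27% of all genes were.

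The 7 members were Pcdha5, Pcdha7, Pcdhb14, Pcdhga5, Pcdhga7, Pcdhgb1 and Pcdhgb6, with log2 fold changes from -0.63 to -0.33 and adjusted p-values from 0.321 to 0.367. Pcdha5 was at 7.49 and 8.12 CPM in WT, 6.29 and 6.70 CPM in Tau and 5.57 and 5.602 CPM in UNC0642-treated Tau mice. The 3 groups were in order and did not overlap. Its log2 fold change against WT was -0.48 (standard error 0.18), and it was -0.54 and still called without the library labelled WT replicate 1. It was no longer called without UNC0642 replicate 1 (-0.48).

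Pcdhgb1 was at 5.76 and 8.12 CPM in WT, 6.15 and 5.44 CPM in Tau and 4.97 and 4.41 CPM in UNC0642-treated Tau mice. The log2 fold change against WT was -0.57 (standard error 0.23), and without the library labelled WT replicate 1 it was -0.80 and still called. Of its stretches of 50 bases, 16.8% also occur in another gene, mostly Pcdhgb2, which was at 8.67 and 6.72 CPM in WT and 8.29 and 6.79 CPM in UNC0642-treated Tau mice. Pcdhga7, described above, was also still called without that WT library, at -0.49. Pcdha5, Pcdhgb1 and Pcdhga7 were the members of the 7 that kept the call without it, and each of them lost it without WT replicate 2, at -0.42, -0.30 and -0.37, and without UNC0642 replicate 2, at -0.49, -0.48 and -0.35. With the Xist term none of these 3 was called, at the same -0.42, -0.30 and -0.37. In this comparison that term takes up WT replicate 2, so it is no separate check. Without the library labelled WT replicate 1, the WT library left has the female pattern of Xist and both treated libraries the male pattern. That fit cannot tell treated Tau against WT from sex.

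The other 4 members lost the call without the library labelled WT replicate 1, and also without UNC0642 replicate 2. Pcdha7 was at 6.07 and 5.08 CPM in WT, 5.51 and 4.41 CPM in Tau and 4.03 and 3.22 CPM in UNC0642-treated Tau mice, with -0.63 (standard error 0.24) and -0.50 without that library. Pcdhb14 was at 21.4 and 20.04 CPM, 20.1 and 18.1 CPM, and 17.2 and 15.9 CPM in the same groups, with -0.33 (standard error 0.12) and -0.28 without it. In both genes the treated libraries were below all others. Pcdhga5 was at 10.1 and 9.37 CPM, 9.47 and 8.07 CPM, and 8.17 and 4.59 CPM, with -0.63 (standard error 0.25), -0.58 without that library, -0.26 without UNC0642 replicate 2, the lowest of the 6 libraries, and -1.09 without UNC0642 replicate 1. Pcdhgb6 had -0.38 (standard error 0.15) against WT and was at 10.6 and 10.5 CPM in UNC0642-treated Tau mice, within the range of untreated Tau. Its value was -0.22 without the library labelled WT replicate 1, and it was not called without UNC0642 replicate 1 either.

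**Figure D5:**
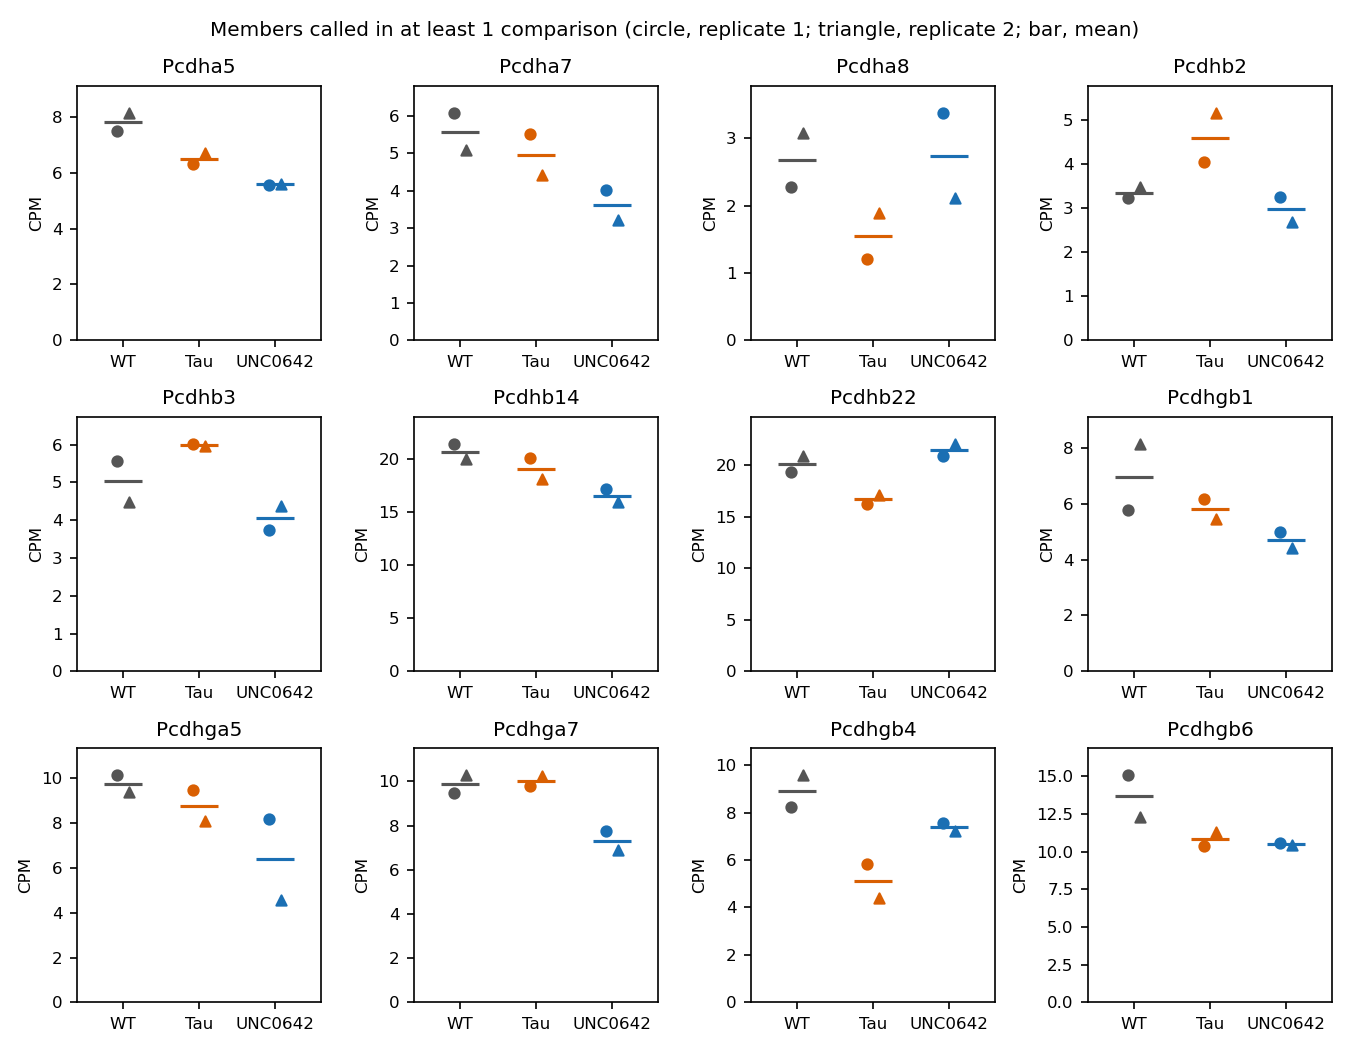
CPM (vertical axes from 0) of the 12 members called in at least 1 comparison, by group, with a circle for replicate 1, a triangle for replicate 2 and a bar for the mean. Pcdhgb4 and Pcdhb22 have their 2 lowest libraries in Tau, Pcdhga7 has its 2 lowest in UNC0642-treated mice, and in Pcdhga5 the low mean of treated mice comes from replicate 2 at 4.59 CPM.

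Genes that control promoter choice in the clusters were looked at in a list of 24, with CTCF, cohesin subunits, DNA and histone methyltransferases and SMCHD1. In Tau against WT none of the 24 was called. In the other comparisons Wiz alone was called, lower both after UNC0642 and against WT. Over all genes 3.95% and 5.69% were called lower in these comparisons, so 1 of 24 was near that share. Wiz, a zinc finger partner of EHMT1 and EHMT2, was at 13.8 and 15.8 CPM in WT, 13.8 and 10.5 CPM in Tau and 8.94 and 8.34 CPM in UNC0642-treated Tau mice. Both treated libraries were the lowest. Its log2 fold change was -0.50 after UNC0642 (standard error 0.17, adjusted p = 0.464) and -0.78 against WT (standard error 0.17, adjusted p = 0.119), and the latter was -0.88 without the library labelled WT replicate 1. After UNC0642 it lost the call without Tau replicate 1 or without UNC0642 replicate 2. Ehmt1 was at 43.6 to 49.0 CPM and Ehmt2 at 131 to 161 CPM over the 6 libraries. Ctcf, which binds promoters of the clusters, was at 76.2 to 85.7 CPM. Setdb1, a histone H3K9 methyltransferase that acts on the clusters in neurons, was at 50.4 to 56.6 CPM, and Smchd1, a chromatin protein of the inactive X chromosome that also represses the clusters, was at 85.9 to 96.2 CPM.

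Protocadherins outside the clusters, 11 of them tested, had 1 member called higher and 3 lower in Tau against WT (3.72% and 6.1% of all genes), 0 and 1 after UNC0642 (3.73% and 3.95%), and 0 and 2 in UNC0642-treated Tau against WT (3.77% and 5.69%). Without the library labelled WT replicate 1, Tau against WT had 1 called higher and 0 lower. Pcdh17 was at 147 and 146 CPM in WT, 169 and 185 CPM in Tau and 134 and 159 CPM in UNC0642-treated Tau mice, with 0.27 in Tau against WT (standard error 0.09) and -0.27 after UNC0642 (standard error 0.09). Without Tau replicate 2 both calls were lost, and without UNC0642 replicate 1 the call after UNC0642 was lost. Pcdh20 was at 45.9 and 37.8 CPM, 33.8 and 31.4 CPM, and 29.1 and 29.2 CPM, with -0.52 against WT in treated mice (standard error 0.12, adjusted p = 0.126) and -0.38, still called, without the library labelled WT replicate 1. Pcdh18, Pcdh20 and Pcdh15 were the 3 called lower in Tau against WT, at -0.39, -0.36 and -0.29, and none of them was without that library. Pcdh18 was also called lower in treated Tau against WT at -0.52, and not without that library or without UNC0642 replicate 2.

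Partners and signalling genes of protocadherins, 21 of them tested, had 0 called in Tau against WT. Of all genes 3.72% were called higher there and 6.1% lower. After UNC0642 0 were called higher and 2 lower (3.73% and 3.95% of all genes). In UNC0642-treated Tau against WT 0 were called higher and 1 lower (3.77% and 5.69%). Without the library labelled WT replicate 1 only 1 WT library is left, so the number called in that fit is not given for this list. Nlgn2, a postsynaptic adhesion protein of inhibitory synapses, was at 128 and 165 CPM in WT, 141 and 103 CPM in Tau and 104 and 86.4 CPM in UNC0642-treated Tau mice, with -0.37 after UNC0642 and -0.62 against WT (standard errors of 0.16). Treated and untreated Tau libraries overlapped. The call after UNC0642 was lost without Tau replicate 1 or without UNC0642 replicate 2, and without the library labelled WT replicate 1 the gene was also called lower in Tau against WT, at -0.43. Ret, a receptor kinase that protocadherins bind, was called lower after UNC0642 at -0.64 (standard error 0.25), and not without Tau replicate 1 or without UNC0642 replicate 1.

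Of 16 genes tested that flank the clusters, 1 was called lower in Tau against WT (6.1% of all genes). After UNC0642 1 was called lower (3.95%), and in UNC0642-treated Tau against WT 2 were (5.69%). None was called higher in any comparison (3.72%, 3.73% and 3.77% of all genes). Without the library labelled WT replicate 1, 0 were called in each comparison. Hars2, which lies beside the Pcdha cluster, was at 27.9 and 24.8 CPM in WT, 20.4 and 20.6 CPM in Tau and 25.2 and 22.6 CPM in UNC0642-treated Tau mice, with -0.37 in Tau against WT (standard error 0.12), which was -0.28 and no longer called without the library labelled WT replicate 1. Slc25a2, which lies between the beta and gamma clusters, had 17 and 16 counts in the WT libraries, 18 and 9 counts in those of untreated Tau mice and 2 and 5 counts after UNC0642, and was called lower in both comparisons of treated mice. Its call after UNC0642 was lost when any of the 6 libraries was left out. Its call against WT was lost without either WT library or UNC0642 replicate 1. Tmco6 was called lower against WT at -0.37 (standard error 0.16), and not when any of the 6 libraries was left out. The median of the flanking genes was 0.01 after UNC0642 and 0.03 in UNC0642-treated Tau against WT.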

How the data were processed

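RNA-seq libraries of total RNA, depleted of ribosomal RNA and made with a stranded kit, were aligned by the authors with TopHat2 and counted per gene with featureCounts. The submitters' processing notes name mm10, and the overlap and strand settings of the counting are not given in the sources used here. The deposited values are raw counts per gene, 1 file per library. The members and gene lists were chosen with earlier results of these data known. The files list the same genes in the same order and were joined by row, after checking that names differed only where 26 of them had turned into dates in WT replicate 2 and Tau replicate 2, where the names of WT replicate 1 were used. Exon lengths came from GENCODE M21 (GRCm38), which held 98.8% of the symbols. Counts were fitted with edgeR 4.0.16 in R 4.3.3 over all 6 libraries, with TMM factors, filterByExpr (minimum count 10, total 15), 1 mean per group and the quasi-likelihood test, leaving 3 residual degrees of freedom. CPM values use the TMM factors. The floor of 3 counts was 0.107 to 0.178 CPM and covers counting error only. Standard errors were taken from the fold change and the F statistic. The fit was tested on simulated counts. Members named are the C-type members, those called in any comparison, and the 3 highest and the 1 lowest by summed count in each cluster. Pcdha1, Pcdha6, Pcdha11, Pcdhb4, Pcdhb7, Pcdhb8, Pcdhb9, Pcdhga11, Pcdhgb2 and Pcdhgb5 were picked after their values were seen. DESeq2 1.42.0, limma-voom (limma 3.58.1), other scalings and filters, a replicate block, an Xist term and leaving out each library were the alternatives. Replicate numbers were not treated as pairing the samples. With 2 libraries per group, p-values measure the spread between these libraries only.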

Additional observations from a re-analysis of the deposited data

How the results depend on the processing

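Of 1035 values of named members under the alternatives, 949 stayed on their side of the call, 61 lost the call and 25 gained it. The sign differed from the reported one in 48 values, 0 of them of a member that was called. Of 108 counts of called members, 76 were within 1.5 times the reported count, and of 135 cluster medians 119 moved by less than the spread between replicates. In Tau against WT the 0 members called higher became 1 with the Xist term. The 2 called lower became 5 with library size only, 4 with at least 10 counts in every library, with limma-voom or with the Xist term, 1 with DESeq2's Wald test or a fold change of at least 1.5, and 0 at an adjusted p under 0.05. After UNC0642 the 3 called higher became 1 with the Xist term or a fold change of at least 1.5 and 0 at an adjusted p under 0.05. The 3 called lower became 6 with no filter, 5 with limma-voom, 1 at a fold change of at least 1.5, and 0 with DESeq2's Wald test or at an adjusted p under 0.05. In UNC0642-treated Tau against WT the 7 called lower became 1 with DESeq2's Wald test, 2 at a fold change of at least 1.5 and 0 at an adjusted p under 0.05. The median of Pcdhb in Tau against WT was -0.054 with library size only. With the Xist term the median of Pcdhb was -0.219 after UNC0642 and -0.147 in treated Tau against WT, and that of Pcdha was 0.038 after UNC0642 and 0.022 in treated Tau against WT, both below 0 in the reported fit. The Xist term rests on the difference between the 2 WT libraries, because Xist differed within no other group. It sets Tau against WT replicate 2 and UNC0642-treated Tau against WT replicate 1. Beyond the construction of each alternative, the cause was not tested.

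Leaving out 1 library at a time gave 0 to 1 called higher and 2 to 4 lower in Tau against WT, 1 to 3 higher and 1 to 8 lower after UNC0642, and 0 to 1 higher and 0 to 8 lower in UNC0642-treated Tau against WT. Medians ran from -0.172 to 0.074 in Pcdha and from -0.203 to -0.007 in Pcdhg in Tau against WT, and from -0.136 to -0.036 in Pcdhg after UNC0642. In UNC0642-treated Tau against WT they ran from -0.420 to 0.016 in Pcdha and from -0.209 to 0.022 in Pcdhb. The median of Pcdha was above 0 without WT replicate 2 in both comparisons with WT, and that of Pcdhb was above 0 without UNC0642 replicate 2 in UNC0642-treated Tau against WT.

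Samples with the same replicate number did not deviate together (correlations of replicate differences over genes of -0.0516, -0.0311 and -0.013). The reported fit therefore does not pair the samples by number. With 1 replicate difference per group, these correlations cannot exclude a pairing. With the replicate block 0 members were called higher and 1 lower in Tau against WT, 2 higher and 3 lower after UNC0642, and 0 higher and 7 lower in UNC0642-treated Tau against WT. The calls lost with the block were those of Pcdhb22 in Tau against WT and of Pcdha8 and Pcdhb2 after UNC0642.

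Depth was 17005664 counts in the shallowest library. Reads in the constant exons are not in these gene counts.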
